A study of Mus musculus with 128 samples.

Results

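Messenger RNA of the sterol regulatory element-binding protein (SREBP) system was followed in mouse liver through 7 genes, chosen by symbol from the deposited gene table of 35275 genes: the factors Srebf1 and Srebf2, the escort Scap, the retention proteins Insig1 and Insig2, and the proteases Mbtps1 and Mbtps2. All 7 were present once in the table, and all were among the 16886 genes with enough reads to be tested. The libraries came from livers of male wild type mice of the strains C57BL6/J and BALB/c, 8 weeks old and bought from the Jackson Laboratory. After 1 week of training, every mouse was fasted for 21 h and then given chow in which 10% of the calories were fat and 64.5% carbohydrate, with a drink of plain water or of water holding 20% glucose, sucrose or fructose. Livers were taken 3, 6 or 12 h after food was returned, and on the water arm also at 0 h, the fasted state. This gave 26 groups, 65 libraries of C57BL6/J and 63 of BALB/c, with 5 libraries in each group except the BALB/c groups given glucose or fructose for 12 h, which held 4. Times after 0 h differ from it in time of day as well as in feeding, and these cannot be told apart.

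SREBPs are made as precursors bound to the membrane of the endoplasmic reticulum, where SCAP holds them. When membrane sterol is low, SCAP carries the precursor in COPII vesicles to the Golgi, where the site-1 protease (Mbtps1) and then the site-2 protease (Mbtps2) cut it and free the part that enters the nucleus. When sterol is plentiful, INSIG proteins bind SCAP and keep the complex in the endoplasmic reticulum. In liver, SREBP-1c from Srebf1 is known as the insulin-responsive driver of fatty acid synthesis and SREBP-2 from Srebf2 as the driver of cholesterol synthesis and uptake. Insig1 is itself a known SREBP target, and Insig2 has a liver transcript known to fall with insulin. Counts per gene do not separate the Srebf1 isoforms or the Insig2 starts, and they do not measure the cut, nuclear proteins.

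On the GRCm38 coordinates of the deposited table, Srebf1 (ENSMUSG00000020538) lies on the minus strand of chr11:60199089-60222581 and Srebf2 (ENSMUSG00000022463) on the plus strand of chr15:82147266-82205376. Scap (ENSMUSG00000032485) is on the plus strand of chr9:110333288-110384946. Insig1 (ENSMUSG00000045294) is on the plus strand of chr5:28071363-28078662 and Insig2 (ENSMUSG00000003721) on the minus strand of chr1:121304353-121332589. Mbtps1 (ENSMUSG00000031835) is on the minus strand of chr8:119508156-119558761 and Mbtps2 (ENSMUSG00000046873) on the minus strand of chrX:157535371-157598715. Rai1 overlaps one end of Srebf1 on the opposite strand, and the sources used here do not give whether counting used strand.

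Because Insig1 and Insig2 moved differently in these livers, their promoters are shown first, with that of Srebf2, the factor that varied most closely with Insig1 among mice of the same group. RefSeq start windows (GRCm38.p6, 250 bases before to 50 bases after the start, 5′ to 3′ on the gene's strand) were found for all 7 symbols, 12 windows in all. Capitals mark the motifs searched on both strands: CCAAT or its reverse complement ATTGG, the letters bound by NF-Y; GGGCGG or CCGCCC, a GC box; CACGTG, an E-box; and TCACNCCA, most of the sterol regulatory element. The windows are Insig1 at chr5:28071162-28071461, Insig2 at chr1:121332540-121332839 and at chr1:121327629-121327928, and Srebf2 at chr15:82147019-82147318.
Insig1: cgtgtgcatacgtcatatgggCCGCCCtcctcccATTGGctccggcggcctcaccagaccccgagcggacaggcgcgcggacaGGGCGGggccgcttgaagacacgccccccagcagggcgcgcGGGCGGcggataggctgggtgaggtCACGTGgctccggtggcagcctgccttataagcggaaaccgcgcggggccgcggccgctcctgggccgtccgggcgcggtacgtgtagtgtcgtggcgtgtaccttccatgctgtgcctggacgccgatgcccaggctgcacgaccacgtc
Insig2, far start: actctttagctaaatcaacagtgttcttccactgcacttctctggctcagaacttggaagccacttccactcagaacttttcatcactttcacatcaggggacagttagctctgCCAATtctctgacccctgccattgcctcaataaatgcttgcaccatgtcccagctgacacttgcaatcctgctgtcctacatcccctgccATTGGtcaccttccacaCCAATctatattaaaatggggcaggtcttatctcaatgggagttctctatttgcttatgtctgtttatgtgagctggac
Insig2, near start: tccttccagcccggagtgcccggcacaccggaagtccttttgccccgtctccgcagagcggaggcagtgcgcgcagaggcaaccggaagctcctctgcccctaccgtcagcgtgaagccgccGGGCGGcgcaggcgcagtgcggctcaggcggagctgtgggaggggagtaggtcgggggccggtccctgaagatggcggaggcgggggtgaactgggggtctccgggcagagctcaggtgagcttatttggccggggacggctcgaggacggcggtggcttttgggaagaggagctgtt
Srebf2: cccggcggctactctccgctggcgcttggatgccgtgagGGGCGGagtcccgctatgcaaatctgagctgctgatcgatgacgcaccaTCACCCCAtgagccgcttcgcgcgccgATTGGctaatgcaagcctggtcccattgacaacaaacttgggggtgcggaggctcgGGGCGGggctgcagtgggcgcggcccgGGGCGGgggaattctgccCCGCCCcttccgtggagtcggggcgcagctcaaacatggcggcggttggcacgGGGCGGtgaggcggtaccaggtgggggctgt

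The Insig1 window holds CACGTG at -101, an ATTGG at -216 and 3 GC boxes, counting from the start. The far Insig2 window holds 3 CCAAT matches, at -136, -46 and -29, and no GC box. The near one holds 1 GC box and no CCAAT. Another Insig2 window, at chr1:121327975-121328274 and not printed above, also holds 1 GC box and no CCAAT. The Srebf2 window holds TCACCCCA at -162 and ATTGG at -135, with 5 GC boxes. The full sterol regulatory element TCACNCCAC was in 0 of the 12 windows and in 1.24% of the 32851 mouse windows of the same length. The shorter TCACNCCA, added after the sequences were read, was in 1 of 12 against 4.36% of all windows. CCAAT was in 5 of 12 against 37.4%, CACGTG in 3 of 12 against 7.15% (both Scap windows overlap and hold the same match), and GGGCGG in 9 of 12 against 35.7%. A match is only a match of letters, and its absence says only that the letters are not in the window.

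Total gene counts ran from 18541545 to 43118895 per library, with a median of 24131379. The hepatocyte markers Alb, Ttr, Apoa1, Cps1, Serpina1c and Tat summed to between 44780 and 126900 CPM, the count of a gene scaled to a common library total, in every library. Medians at the 4 times were between 77550 and 81130 CPM over all drinks. On water they were 81130, 83310, 86660 and 77830 CPM at 0, 3, 6 and 12 h. Most of this sum was Alb, with a median of 55200 CPM over all libraries against 971.5 to 10330 CPM for the others. Profiles were compared over the 500 genes that differed most between times relative to their spread within times, chosen with all libraries included. Over these genes, 3 libraries lay nearer to another time of their strain than to their own. The C57BL6/J library of replicate 2 at 0 h on water was nearest to 3 h (correlation 0.87 with 3 h against -0.17 with its own time), and the BALB/c fructose libraries of replicate 4 at 3 h and at 6 h were nearest to 0 h. The C57BL6/J one held 319 CPM of Srebf1 and 515 CPM of Insig1, the highest of its group for both. Another library of note was replicate 1 of BALB/c at 0 h, with 358.5 CPM of Scap where the other 4 held 106 to 159.6. The name of 34 libraries carries a suffix whose meaning the labels do not give, and 94 carry none.

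Skeletal muscle markers (all 6 detected: Mb, Tcap, Myh1, Acta1, Ckm and Mylpf) also moved with time. On water their summed level ran from 1.17 to 216 CPM at 0 h, 2.02 to 125 CPM at 3 h, 1.46 to 240.2 CPM at 6 h and 0.816 to 43.5 CPM at 12 h. Mylpf was detected in every library, and the other 5 markers were at 0 in 10 to 28 libraries each. Their part in the time differences below was not tested. Summed adipocyte markers (Adipoq, Plin1, Cidec and Retn) on water had medians of 10.6, 10.9, 5.82 and 3.85 CPM at 0, 3, 6 and 12 h. Most of this sum was Cidec, with a median of 5.71 CPM over all libraries against 0.198 to 0.448 CPM for the others. Markers of adrenal cortex (Cyp11a1, Hsd3b1, Star, Cyp21a1 and Cyp11b1) or of pancreatic acinar cells were high in 5 libraries, all at 6 h. The adrenal sum was 599.7 CPM in replicate 2 of C57BL6/J on water, 269 CPM in replicate 5 of C57BL6/J with glucose, 231 CPM in replicate 2 of BALB/c with fructose and 97.6 CPM in replicate 1 of C57BL6/J with sucrose, and at most 33.9 CPM in all others, with Cyp11b1 at 0 in 105 libraries. The acinar sum was 1055 CPM in replicate 3 of C57BL6/J with glucose and at most 95.4 CPM in all others. Without these 5, a choice made after seeing the data, the 6 h rise on water was 1.66 for Insig1 (adjusted p = 2.53e-09 by edgeR), 1.00 for Insig2 (adjusted p = 3.37e-06), 0.74 for Srebf1 (adjusted p = 0.00127) and 0.53 for Srebf2 (adjusted p = 0.00164), against 1.66, 1.04, 0.77 and 0.52 with them. In whole liver, fewer cells of a type and less RNA per cell cannot be told apart.

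Per length of transcript, in the deposited FPKM (count over gene length and library total), Insig1, Insig2, Srebf1 and Scap held the first 4 places in all groups, in an order that varied between them. Insig1 had the highest mean of the 7 in 19 of the 26 groups and Insig2 in the other 7. Srebf2 and Mbtps1 took the fifth and sixth places in all 26, and Mbtps2 was lowest in all 26, with group means of 1.17 to 2.14 FPKM. These orders, and the overlaps between genes below, rest on the deposited gene lengths. The union of exons of the GENCODE annotation is longer by uneven amounts. It is 10539 against 4370 bases for Mbtps1, 7184 against 4989 for Srebf2 and 3093 against 2697 for Insig1. The order of the 7 was not taken again with it.

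In fasted C57BL6/J liver the mean levels were 110 ± 46.7 FPKM for Insig1 (SD, n = 5 here and below), 44 ± 17.2 for Srebf1, 24.3 ± 7.37 for Insig2, 21.1 ± 4.63 for Scap, 10.8 ± 1.34 for Mbtps1, 9.89 ± 2.68 for Srebf2 and 1.62 ± 0.478 for Mbtps2. Among neighbours in that order, only Scap against Mbtps1 and Srebf2 against Mbtps2 had ranges that did not overlap. Fasted BALB/c liver had another order at the top. Insig2 came first at 56.8 ± 26.5 FPKM, then Scap at 40.5 ± 25.7, Insig1 at 35.8 ± 17.9 and Srebf1 at 23.7 ± 9.78, and the ranges of all 4 neighbouring pairs down to Mbtps1 (11.9 ± 1.35) overlapped. The Scap value there includes the library of 86 FPKM named above.

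After 6 h on water Insig1 stood apart from all others in both strains, at 229 ± 22.7 FPKM in C57BL6/J and 179 ± 43.8 in BALB/c. Insig2 and Srebf1 came next, at 59.4 ± 15.8 and 49.6 ± 11.8 FPKM in C57BL6/J and at 101 ± 25.6 and 62.9 ± 8.66 in BALB/c, and their ranges overlapped. By 12 h Insig2 was highest, at 129.5 ± 27.7 FPKM against 99.2 ± 32.7 for Insig1 in C57BL6/J, where the ranges overlapped, and at 148 ± 21.6 against 46.4 ± 22.9 in BALB/c, where they did not.

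Srebf1 exceeded Srebf2 in FPKM in every library, by 1.49 to 25.3 times with a median of 6.66. Insig1 exceeded Insig2 in 92 of the libraries, and in 95 with the union of exons of the GENCODE annotation as length. By time, Insig1 was the higher in 5 of 5 fasted C57BL6/J libraries but in 1 of 5 fasted BALB/c libraries. At 3 h it was higher in 20 of 20 and 19 of 20 libraries over the 4 drinks, at 6 h in 20 of 20 and 16 of 20, and at 12 h in 11 of 20 C57BL6/J and 0 of 18 BALB/c libraries.

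**Figure D1:**
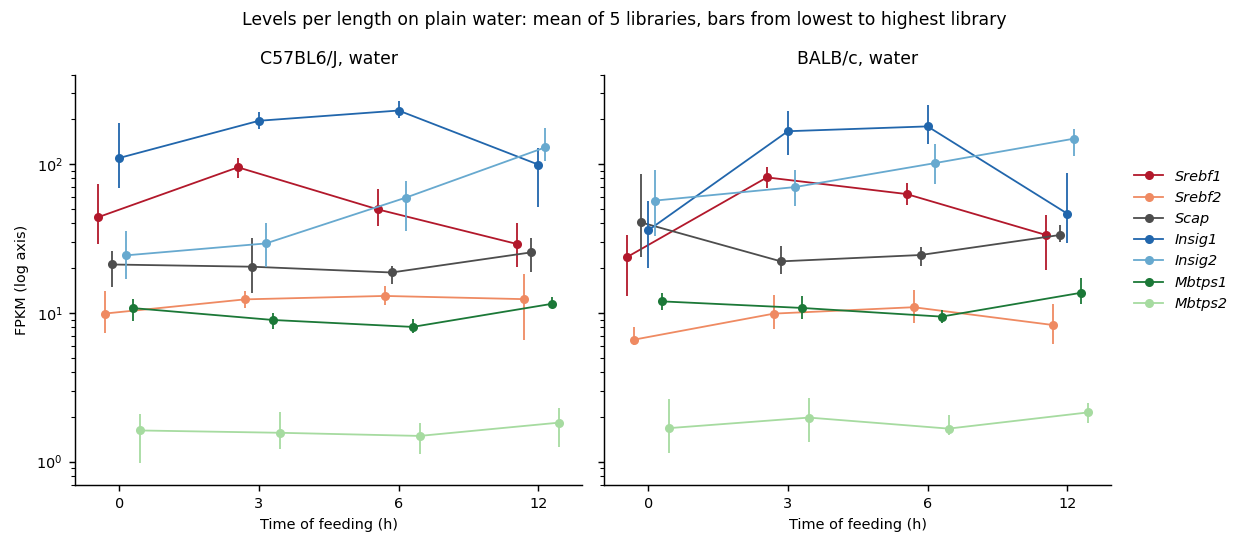
Mean FPKM of each of the 7 genes (log axis) on plain water, by strain and hours after food. Bars run from the lowest to the highest library. Insig1 is highest at 3 and 6 h and Insig2 at 12 h in both strains. At 0 h Insig1 is highest in C57BL6/J and Insig2 in BALB/c. Mbtps2 is lowest in every group shown.

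Feeding on plain water was compared with the fasted state by edgeR's quasi-likelihood test over all genes, as the mean of both strains' effects, with Benjamini-Hochberg adjusted p under 0.05 as the threshold. The p-values measure the spread between libraries, each read here as a separate mouse, and the 3 comparisons with 0 h share the same 10 fasted libraries. At 3 h, 5 of the 7 genes changed, when 25.4% of all genes tested did: Srebf1, Srebf2 and Insig1 rose, and Scap and Mbtps1 fell. At 6 h, 6 of 7 changed (28.8% of all genes), with Insig2 now higher too. At 12 h only Insig2 still differed from the fasted state (1 of 7 against 17.6% of all genes). Between neighbouring times, 2 of 7 changed from 3 to 6 h (8.08% of all genes) and 5 of 7 from 6 to 12 h (29.1%). In the 94 libraries with no name suffix the changes from 0 h kept their calls except that of Srebf2 at 3 h, with Srebf1 at 1.52 and Insig1 at 1.70 at 3 h.

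Srebf1, which encodes SREBP-1a and SREBP-1c, peaked at 3 h. Fasted libraries held 134, 164, 182, 183 and 319 CPM in C57BL6/J and 54.7, 65.8, 126, 137 and 145.5 in BALB/c. At 3 h they held 355, 357, 426, 441 and 465 CPM in C57BL6/J and 291, 312, 316, 384 and 392 in BALB/c. Every fed library was above every fasted library of its strain. The log2 fold change was 1.37 ± 0.19 (SE, adjusted p = 6.64e-09 by edgeR), and 1.48 once the 3 libraries that lay closer to a different time were dropped.

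At 6 h Srebf1 stood at 175, 197, 224, 247 and 295 CPM in C57BL6/J and at 234, 263, 265, 281 and 282 in BALB/c. All 10 libraries were below all 3 h libraries of their strain, with a log2 change of -0.60 ± 0.19 (adjusted p = 0.0301 by edgeR); without replicate 2, 3, 4 or 5 the adjusted p was 0.0839 to 0.0989, and it was 0.0813 in the libraries with no name suffix. Against the fasted state the 6 h value was still higher, by 0.77 ± 0.19 (adjusted p = 0.000741 by edgeR), with overlap in C57BL6/J. At 12 h its range overlapped the fasted one in both strains, at 88.2 to 164 CPM in C57BL6/J, toward lower values, and 78.8 to 192 in BALB/c, toward higher ones. The fall from 6 to 12 h was -0.92 ± 0.19 (adjusted p = 5.45e-05 by edgeR), with no overlap in either strain, and the interval of the 12 h difference from 0 h reached from -0.52 to 0.21 (95%).

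Srebf2, the cholesterol-synthesis factor, moved less. Fasted libraries held 38.5, 39.2, 51.4, 53.6 and 77.2 CPM in C57BL6/J and 30.3, 31.1, 32.1, 36 and 42.4 in BALB/c, and 6 h libraries held 62.4, 62.5, 65, 75.9 and 80.4 and 41.6, 53.4, 53.7, 54.7 and 62.9. The 6 h values lay toward the top of the fasted ranges and above them, and 1 fasted library in each strain overlapped them. The log2 change was 0.52 ± 0.13 at 6 h (adjusted p = 0.00113 by edgeR). At 3 h it was 0.36 ± 0.13 (adjusted p = 0.0367 by edgeR), a call lost without replicate 2 (adjusted p = 0.241), without replicate 3 (0.174) and in the libraries with no name suffix (0.0531). At 12 h the change of 0.21 did not pass the test (adjusted p = 0.3 by edgeR).

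Scap, the escort of both factors, was lower after feeding. Fasted libraries held 63.7, 80.6, 104, 107 and 112 CPM in C57BL6/J and 106, 127.2, 127.8, 159.6 and 358.5 in BALB/c. At 3 h the values were 61.9, 74.5, 76.8, 92.6 and 116 CPM in C57BL6/J and 76.1, 82.1, 85, 98.7 and 112 in BALB/c. C57BL6/J libraries overlapped widely, and in BALB/c only the highest fed library reached the lowest fasted one. The log2 change was -0.55 ± 0.13 at 3 h (adjusted p = 0.000748 by edgeR) and -0.47 ± 0.13 at 6 h (adjusted p = 0.00416 by edgeR). Much of this came from 1 mouse: without replicate 1 of fasted BALB/c, Scap changed by -0.33 at 3 h (adjusted p = 0.0346 by edgeR) and by -0.25 at 6 h, where the call was lost (adjusted p = 0.129). Without replicate 1 in all groups both calls were lost, at -0.33 (adjusted p = 0.079 by edgeR) and -0.23 (adjusted p = 0.256). From 6 to 12 h Scap rose by 0.36 ± 0.13 (adjusted p = 0.0309 by edgeR), a call lost without replicate 2 (adjusted p = 0.101) or 3 (0.106) and without the 5 libraries high in adrenal or acinar markers (0.0522).

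Insig1, the retention protein whose gene answers to SREBP, had the largest rise of the 7 at 3 and at 6 h. Fasted libraries held 183, 251, 277, 322 and 515 CPM in C57BL6/J and 58.8, 60.7, 72.4, 149.9 and 162 in BALB/c. At 6 h they held 588, 623, 652, 657 and 798 CPM in C57BL6/J and 379, 445, 451, 486 and 595 in BALB/c, above every fasted library of their strain. The log2 change was 1.44 ± 0.22 at 3 h (adjusted p = 1.21e-07 by edgeR) and 1.66 ± 0.22 at 6 h (adjusted p = 1.71e-09 by edgeR).

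By 12 h Insig1 had fallen to 133, 214, 329.7, 337 and 353 CPM in C57BL6/J and to 75.6, 80.6, 98, 107 and 229 in BALB/c. All 10 libraries were below all 6 h libraries of their strain, and the fasted and 12 h ranges overlapped. The change from 6 h was -1.64 ± 0.22 (adjusted p = 3.22e-09 by edgeR). Against 0 h it was 0.02 (adjusted p = 0.967 by edgeR), with a 95% interval of -0.40 to 0.45.

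Insig2, the second retention protein, had a slower and one-way course. At 3 h its level was 47.4, 69.3, 83.1, 87.6 and 112 CPM in C57BL6/J and 142, 145, 195, 199 and 230.5 in BALB/c, against fasted values of 44.5, 55.4, 67.9, 73.2 and 105 and of 91.1, 102, 132, 225 and 245. The groups overlapped in both strains, and the change of 0.20 had a 95% interval of -0.14 to 0.55 (adjusted p = 0.453 by edgeR). At 6 h the range was 102 to 222 CPM in C57BL6/J and 174 to 359.6 in BALB/c, a rise of 1.04 ± 0.18 over 0 h (adjusted p = 1.09e-06 by edgeR).

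Insig2 was higher still at 12 h, with 296, 305, 317, 355 and 502 CPM in C57BL6/J and 288, 341, 389, 406 and 437 in BALB/c. Every one of these was above every fasted library of its strain. The log2 change was 1.79 ± 0.18 over 0 h (adjusted p = 3.54e-14 by edgeR) and 0.75 ± 0.18 over 6 h (adjusted p = 0.000465 by edgeR). The 12 h rise was 1.75 in the libraries with no name suffix and 1.80 when those that lay nearer to another time were left out.

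Mbtps1, the site-1 protease, fell by a small amount with a narrow spread. Fasted libraries held 39.2, 47.6, 48.6, 51.4 and 59.8 CPM in C57BL6/J and 47.2, 51.9, 53.5, 55.3 and 63.5 in BALB/c. At 6 h they held 34.6, 35.7, 36.9, 38.8 and 42.1 CPM in C57BL6/J and 36.4, 38.1, 38.6, 44.6 and 45.4 in BALB/c. The BALB/c values were all below the fasted range, and in C57BL6/J only the highest fed library reached above the lowest fasted one. The change was -0.40 ± 0.08 at 6 h (adjusted p = 3.17e-05 by edgeR) and -0.29 at 3 h (adjusted p = 0.00303 by edgeR; 0.0545 without replicate 1). From 6 to 12 h it rose again by 0.44 ± 0.08 (adjusted p = 6.91e-06 by edgeR), with no overlap in either strain.

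Mbtps2, the site-2 protease, was the lowest gene, at 4.62 to 12.4 CPM in fasted libraries and 5.24 to 12 CPM at 3 h. None of the 5 comparisons of times on water passed the test for it. Its change at 3 h was 0.01 with a 95% interval of -0.25 to 0.28, and at 6 h -0.09 with an interval of -0.35 to 0.18.

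**Figure D2:**
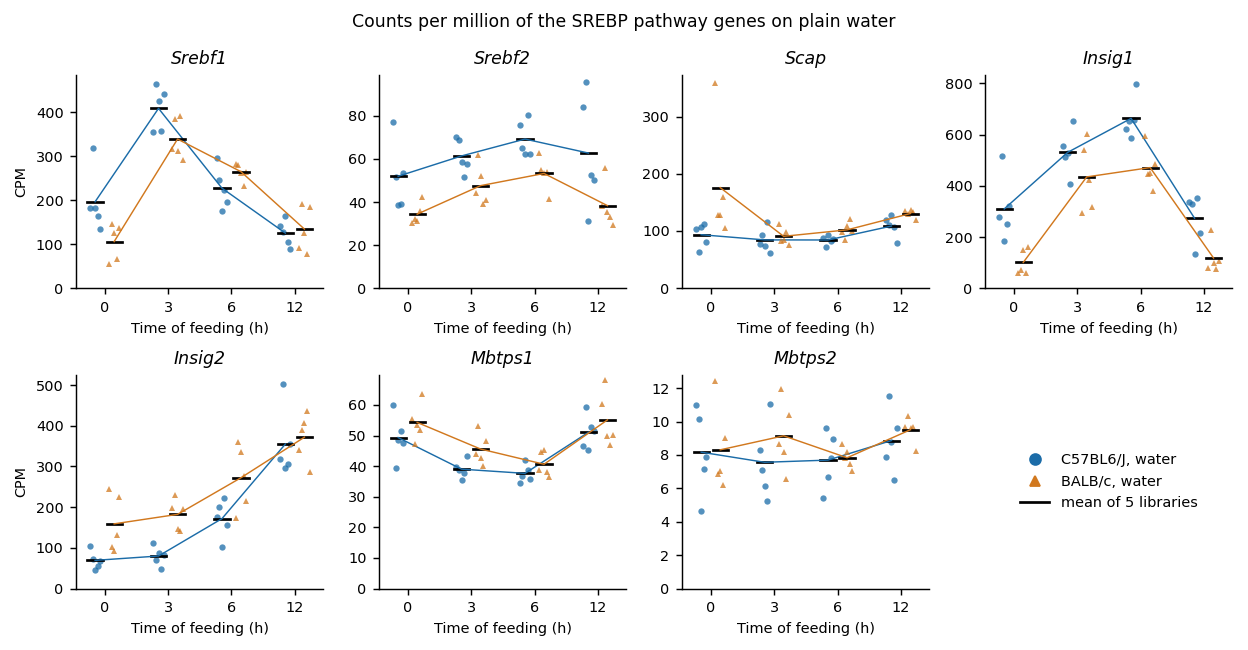
CPM of the 7 genes (linear axis) against hours after food on plain water. Each point is a library, lines join the group means and colours mark the strains. Srebf1 is highest at 3 h and Insig1 at 3 and 6 h, while Insig2 reaches 288 to 502 CPM at 12 h.

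The members of each pair were then set against each other within the same library, as the difference of their log2 CPM, which cancels what scales both genes alike. Times, drinks and strains were compared by an exact two-sided permutation test over libraries, within strain where both strains entered, and adjusted over the 36 tests made. The smallest p such a test can give is 3.15e-05 for both strains together and 0.00794 for 5 against 5. Levels of different genes in CPM are not per length, so only the change of this difference is read.

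Insig1 minus Insig2 on water was 2.13 ± 0.51 in fasted C57BL6/J (SD, n = 5), 2.77 ± 0.32 at 3 h, 1.99 ± 0.42 at 6 h and -0.44 ± 0.57 at 12 h. In BALB/c it was -0.69 ± 1.01, 1.22 ± 0.62, 0.83 ± 0.63 and -1.77 ± 0.68. The balance tilted to Insig1 at 3 h and to Insig2 at 12 h in both strains. It rose by 1.27 at 3 h (adjusted p = 0.00265, exact permutation test, 10 of 10 libraries above their fasted mean) and stood 1.83 lower than fasted at 12 h, a difference of -1.83 (adjusted p = 0.00178, exact permutation test, 0 of 10 above). The rise of 0.68 at 6 h did not pass (adjusted p = 0.129, exact permutation test). From 6 to 12 h the difference moved by -2.51 (adjusted p = 0.000567, exact permutation test), with no overlap between the times. From 3 to 6 h it moved by -0.59 (adjusted p = 0.0455, exact permutation test), a call lost when replicate 2, 3, 4 or 5 was left out (adjusted p 0.0649 to 0.267) or the 5 libraries high in adrenal or acinar markers (0.065).

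Srebf1 minus Srebf2 on water was 1.90 ± 0.60 in fasted C57BL6/J, 2.73 ± 0.23 at 3 h, 1.70 ± 0.23 at 6 h and 1.07 ± 0.77 at 12 h (SD, n = 5), and 1.52 ± 0.63, 2.84 ± 0.29, 2.32 ± 0.22 and 1.75 ± 0.58 in BALB/c. It was largest at 3 h in both strains. The rise at 3 h was 1.08 (adjusted p = 0.000567, exact permutation test, 10 of 10 libraries above their fasted mean), and from 3 to 6 h it fell by 0.78 (adjusted p = 0.00068, exact permutation test, 0 of 10 above). The further change of -0.60 to 12 h (adjusted p = 0.0368, exact permutation test) lost its call without replicate 1, 2, 4 or 5 (adjusted p 0.0649 to 0.176) and without the libraries high in adrenal or acinar markers (0.0648). Neither 6 h nor 12 h differed from fasted beyond the threshold, with values of 0.30 (adjusted p = 0.327) and -0.30 (adjusted p = 0.44) in the exact permutation test.

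**Figure D3:**
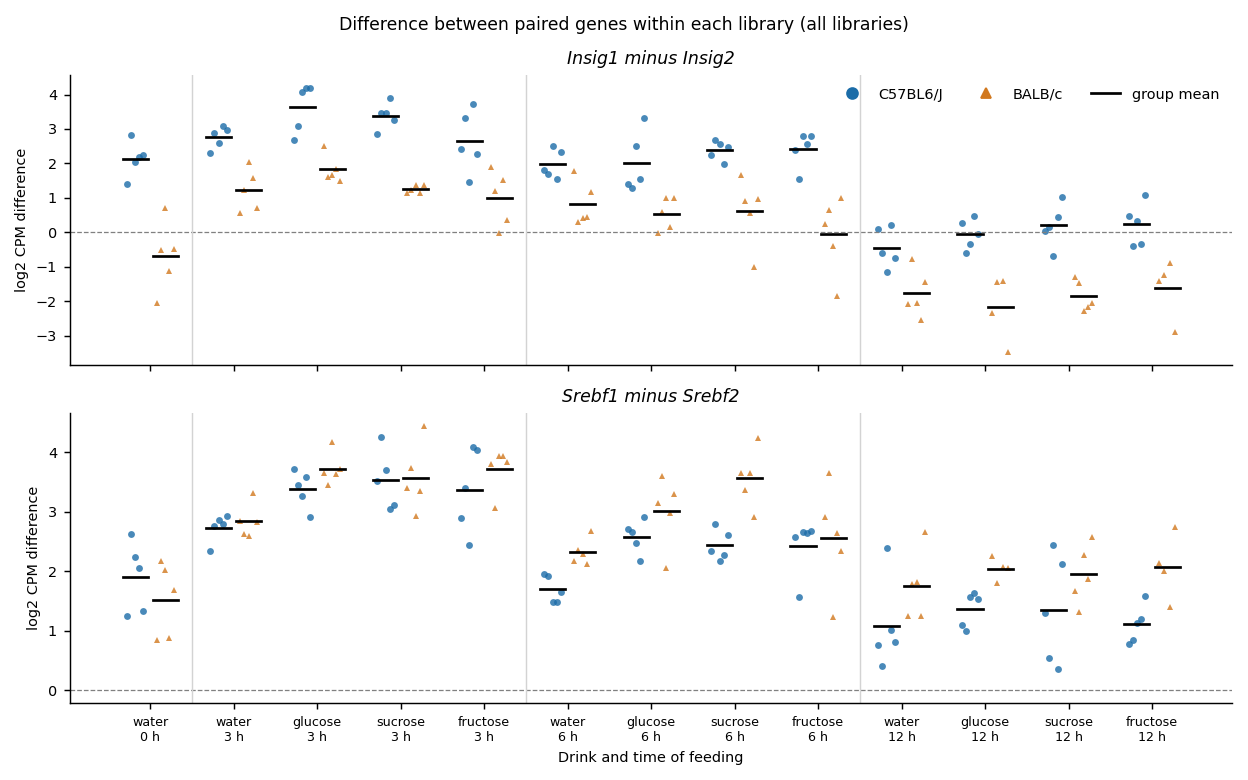
Difference of log2 CPM within each library, Insig1 minus Insig2 and Srebf1 minus Srebf2, against hours after food, by drink and strain; each point is a library and bars mark group means. Insig1 minus Insig2 drops below 0 on average at 12 h on water in both strains, at -0.44 and -1.77.

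Sugar in the drink was compared with plain water at the same time, again as the mean of both strains' effects. The 3 sugars are set against the same water libraries. Srebf1 was the only one of the 7 genes to change: it rose with glucose and with sucrose, at 3 h and at 6 h. That is 1 of 7 genes for glucose at 3 h (0.19% of all genes tested), 1 of 7 for sucrose at 3 h (2.92%), 1 of 7 for glucose at 6 h (0.906%) and 1 of 7 for sucrose at 6 h (1.14%). With fructose 0 of 7 passed in edgeR at 3 h (6.71% of all genes) and 0 of 7 at 6 h (1.23%), with 3 at an unadjusted p under 0.05 each time and 0 called by DESeq2.

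At 12 h 0 of 7 passed in edgeR with any sugar, when 0.0651% of genes did with glucose, 0.00592% with sucrose and 0.00592% with fructose. At an unadjusted p under 0.05 there were 0, 1 and 0 of the 7, and DESeq2 called 0 each time. The 1 was Insig2 with sucrose, at -0.37 and lower in 10 of 10 libraries than the water mean of their strain.

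With glucose at 3 h Srebf1 reached 414, 621, 702, 830.2 and 1016 CPM in C57BL6/J and 499, 519, 581, 616 and 802 in BALB/c. All 10 were above the mean of the water libraries, whose range was 355 to 465 and 291 to 392 CPM, and in BALB/c the ranges did not overlap. The log2 change was 0.82 ± 0.19 (adjusted p = 0.0244 by edgeR). With sucrose at 3 h the values were 529, 529.9, 587, 719 and 905 CPM and 378, 418, 472, 578 and 856, with no overlap in C57BL6/J, and the change was 0.67 ± 0.19 (adjusted p = 0.0244 by edgeR).

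At 6 h Srebf1 stood at 309, 315, 343, 404 and 426 CPM with glucose in C57BL6/J and at 220.5, 366, 441, 542 and 653 in BALB/c, against water ranges of 175 to 295 and 234 to 282 CPM. It was higher in 9 of 10 libraries, by 0.70 ± 0.19 (adjusted p = 0.0411 by edgeR). With sucrose at 6 h it was 228, 242, 287, 375 and 448 CPM and 347, 444, 469, 701 and 811, higher in 10 of 10, by 0.77 ± 0.19 (adjusted p = 0.0172 by edgeR). These 4 calls are close to the threshold. Each was lost when some single replicates were left out, with log2 changes of 0.60 to 0.90 and adjusted p of 0.0568 to 0.945. Without a filter on low counts that of glucose at 6 h was lost as well (adjusted p = 0.06), and in the libraries with no name suffix only that of sucrose at 6 h kept it (0.89, adjusted p = 0.0147 by edgeR). Without the 5 libraries high in adrenal or acinar markers, glucose at 6 h gave 0.65, which did not pass (adjusted p = 0.135 by edgeR), and sucrose at 6 h 0.76 (adjusted p = 0.0319 by edgeR).

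With fructose at 3 h Srebf1 held 314, 396, 569.9, 649 and 759.9 CPM in C57BL6/J and 346, 446, 502, 525 and 654 in BALB/c. The groups overlapped water in both strains, and the change of 0.47 had a 95% interval of 0.10 to 0.84 (adjusted p = 0.129 by edgeR). At 6 h the value was 0.28, with an interval of -0.08 to 0.65 (adjusted p = 0.61 by edgeR). Dropping the 3 libraries that lay closer to a different time gave 0.46 and 0.34.

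Srebf2 with fructose held 38.1, 46.1, 53.4, 54 and 58.1 CPM in C57BL6/J and 31.3, 32.6, 34.2, 41.5 and 47 in BALB/c at 3 h. Each strain overlapped its water range, although the values were below the water mean in 10 of 10 libraries at 3 h and again at 6 h. The changes of -0.32 at 3 h (adjusted p = 0.145 by edgeR) and -0.33 at 6 h (adjusted p = 0.269 by edgeR) did not pass.

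Insig1 with fructose at 6 h held 397, 466, 578, 591 and 627 CPM in C57BL6/J and 84.6, 154, 274.5, 314 and 368 in BALB/c, the last strain wholly below its water range of 379 to 595 CPM. The lowest BALB/c value, 84.6 CPM, was that of replicate 4, whose profile lay nearest to 0 h. The change of -0.65 ± 0.22 did not pass (adjusted p = 0.142 by edgeR), nor did that of Insig2 at -0.53 ± 0.18 (adjusted p = 0.138 by edgeR). With glucose at 3 h Insig1 held 865, 906, 1012, 1105 and 1323 CPM in C57BL6/J, all above water, and 355, 461, 552, 638 and 672 in BALB/c, which overlapped it. That change, 0.64 ± 0.22, did not pass (adjusted p = 0.425 by edgeR).

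Scap, Mbtps1 and Mbtps2 passed no sugar test. Their largest log2 differences from water at 3 and 6 h were 0.22 for Scap and -0.28 for Mbtps2, both with fructose at 3 h, and 0.13 for Mbtps1 with glucose at 6 h.

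Glucose and fructose are the 2 sugars of sucrose, and they were also set against each other directly. At 3 h Insig1 was lower with fructose than with glucose by 0.76 on the log2 scale, a change of -0.76 ± 0.22 (adjusted p = 0.0392 by edgeR), 1 of 7 genes against 2.35% of all genes. It held 256 to 808 CPM with fructose in C57BL6/J, below all 5 glucose libraries, and 162 to 557 in BALB/c, which overlapped them. Without replicate 3 the change was -0.48 (adjusted p = 0.43), and in the libraries with no name suffix -0.79 (adjusted p = 0.198). At 6 h edgeR called 0 of 7 (0.255% of all genes), with 2 at an unadjusted p under 0.05 and 0 by DESeq2, and at 12 h 0 of 7 (0.0% of all genes), with 0 and 0.

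The within-library differences were also compared between each sugar and water. Their p-values were adjusted over the pair tests only, and those of edgeR over all genes. The adjusted values of these tests therefore cannot be ranked against each other. Srebf1 minus Srebf2 rose with all 3 sugars at 3 h, by 0.77 with glucose (adjusted p = 0.000567), 0.76 with sucrose (adjusted p = 0.00178) and 0.75 with fructose (adjusted p = 0.00726) in the exact permutation test. At 6 h it rose by 0.79 with glucose (adjusted p = 0.00198, exact permutation test) and by 0.99 with sucrose (adjusted p = 0.000567, exact permutation test), where no sucrose library overlapped the water libraries of its strain. Fructose at 6 h gave 0.48, which did not pass (adjusted p = 0.114, exact permutation test), and at 12 h no sugar passed, with values of 0.17 to 0.29. The rise with fructose at 3 h held a higher Srebf1 and a lower Srebf2. In edgeR these were 0.47 and -0.32, and neither passed alone. Insig1 minus Insig2 rose with glucose at 3 h only, by 0.74 (adjusted p = 0.0204, exact permutation test). That call was lost without replicate 1, 2, 4 or 5 (adjusted p 0.0521 to 0.0689), and the other 8 sugar comparisons of the pair lay between -0.23 and 0.42.

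**Figure D4:**
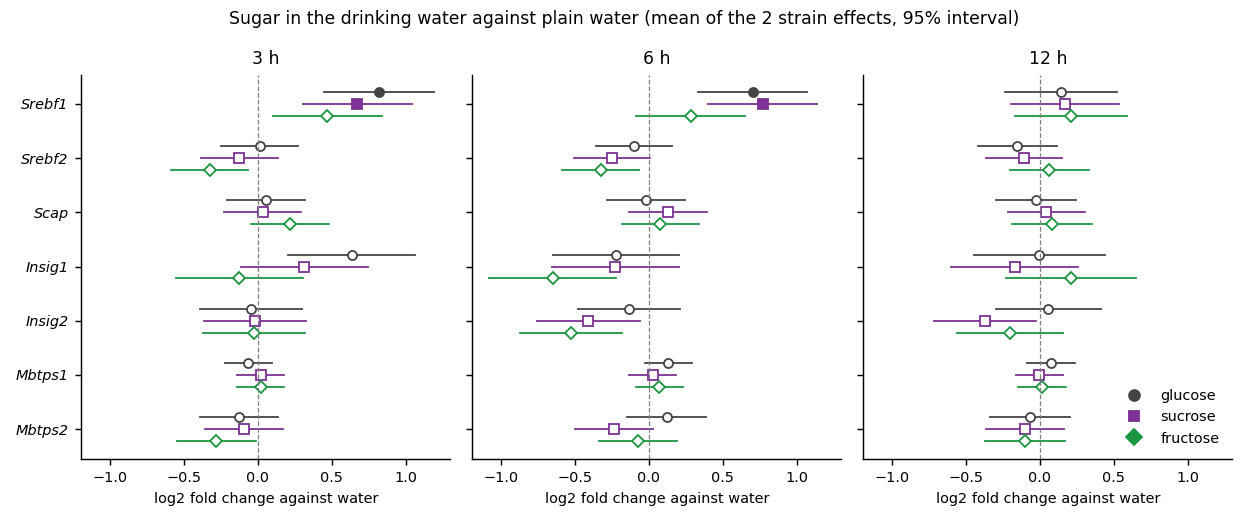
Log2 fold change of each of the 7 genes for glucose, sucrose and fructose against water at 3, 6 and 12 h, mean of both strains. Bars are 95% intervals. Srebf1 with glucose and sucrose, 0.82 and 0.67 at 3 h and 0.70 and 0.77 at 6 h, holds the only changes that passed.

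BALB/c and C57BL6/J differed most in the fasted state, where 5 of the 7 genes passed (16.3% of all genes). Insig1 was lower in BALB/c, at -1.62 ± 0.32 (adjusted p = 3.69e-05 by edgeR), and its fasted ranges of 58.8 to 162 and 183 to 515 CPM did not overlap. Insig2 was higher in BALB/c, at 1.20 ± 0.25 (adjusted p = 0.000143 by edgeR), with overlap. Within a library, Insig1 minus Insig2 was lower in BALB/c by 2.82 on the log2 scale, a difference of -2.82 (adjusted p = 0.0204, exact permutation test), with no overlap.

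The other fasted differences lost their call when single libraries were left out, Scap and Srebf1 with a smaller difference and Srebf2 with a similar one. Scap was higher in BALB/c, at 0.91 ± 0.19 (adjusted p = 0.000121 by edgeR), and at 0.48 without the BALB/c library of replicate 1 (adjusted p = 0.0629). Srebf1 was lower, at -0.89 ± 0.27 (adjusted p = 0.0111 by edgeR), and at -0.65 without the C57BL6/J library of replicate 2 (adjusted p = 0.106). Srebf2 was lower too, at -0.60 ± 0.19 (adjusted p = 0.0174 by edgeR), and at -0.55 without the BALB/c library of replicate 1 (adjusted p = 0.0556). Markers of other cells were also compared between these fasted groups, and they did not all go the same way. Those of liver endothelium summed to 147 to 167 CPM in C57BL6/J and 170.5 to 238 CPM in BALB/c, without overlap. Those of stellate cells ran from 154 to 225 CPM (median 169) against 192 to 278 (median 250.2), and those of adipocytes from 6.42 to 11.6 CPM (median 8.26) against 3.11 to 20.4 (median 17.7). Cholangiocyte markers went the other way, at 30.6 to 53.2 CPM (median 47) in C57BL6/J against 17.3 to 48 (median 36.7) in BALB/c. Kupffer cell and macrophage markers overlapped, at 92.4 to 199.8 CPM (median 144.7) against 121.7 to 181.3 (median 170.5). The part of these markers in the strain differences was not tested.

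At 3 h only Insig2 differed (1 of 7 against 12.9% of all genes), higher in BALB/c by 1.19 ± 0.25 (adjusted p = 0.000192 by edgeR) with no overlap. At 6 h edgeR called 0 of 7 (11.5% of all genes), with 2 at an unadjusted p under 0.05 and 0 by DESeq2. At 12 h 2 of 7 passed (12.6% of all genes): Srebf2 at -0.71 ± 0.19 (adjusted p = 0.00384 by edgeR) and Insig1 at -1.21 ± 0.31 (adjusted p = 0.00288 by edgeR), both lower in BALB/c, and both lost without replicate 1 (adjusted p = 0.0622 and 0.0564). Insig1 minus Insig2 was lower in BALB/c at every time in the exact permutation test, at -1.55 at 3 h (adjusted p = 0.0204), -1.16 at 6 h (adjusted p = 0.0476, and 0.065 without the libraries high in adrenal or acinar markers) and -1.33 at 12 h (adjusted p = 0.0368). Srebf1 minus Srebf2 was higher in BALB/c at 6 h by 0.62 (adjusted p = 0.0204, exact permutation test, no overlap) and passed at no other time. With any 1 replicate left out none of these strain differences of the pairs passed in the exact permutation test, the adjusted p of Insig1 minus Insig2 being 0.0571 to 0.0735 at 0 and 3 h and 0.0571 to 0.168 at 6 and 12 h; 4 libraries against 4 leave little room for a lower one.

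Whether the strains responded differently to food was tested directly, and edgeR called 0 of 7 at 3 h (0.338% of all genes), 0 at 6 h (0.302%) and 0 at 12 h (0.278%). At an unadjusted p under 0.05 there were 2, 3 and 3 of the 7, and DESeq2 called 0 each time. The largest such difference was that of Insig1 at 3 h, 1.33 ± 0.44 more in BALB/c (adjusted p = 0.193 by edgeR), and for Insig2 at 12 h it was -1.13 ± 0.35 (adjusted p = 0.19 by edgeR). For the drinks 0 of 7 passed in edgeR at 3 h (0.0474% of all genes), 6 h (0.178%) and 12 h (0.0%), with 0 at an unadjusted p under 0.05 and 0 by DESeq2.

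Mice of the same group also differed from each other, and Insig1 followed both SREBP genes in those differences. Log2 CPM was taken as deviation from the group mean in the 65 C57BL6/J and 63 BALB/c libraries together, and 6 pairs of genes were tested by permutation within groups with adjustment over the 6. Srebf2 and Insig1 had the highest correlation, with Pearson's r of 0.488 (adjusted p = 6e-05, from the smallest p of 1e-05 that the permutations can give) and Spearman's rho of 0.459 (adjusted p = 6e-05). Without the 2 farthest libraries r was 0.46. Srebf1 and Insig1 gave r of 0.395 (adjusted p = 0.00099, permutation test) and rho of 0.382 (adjusted p = 0.00066), and r of 0.364 without the 2 farthest.

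Srebf2 and Insig2 gave a weaker r of 0.294 (adjusted p = 0.00224, permutation test) and rho of 0.251 (adjusted p = 0.0163), with 0.269 without the 2 farthest and 0.216 without replicate 4 (adjusted p = 0.0832, permutation test). In the 94 libraries with no name suffix the same 3 pairs gave r of 0.497, 0.374 and 0.356. With the mean of each replicate number also removed they gave 0.514, 0.362 and 0.238 (adjusted p = 0.00012, 0.00189 and 0.0226, permutation test). For Srebf2 and Insig2, rho was then 0.202 and did not pass (adjusted p = 0.0694, permutation test). Without the 2 farthest libraries, r of that pair was 0.184. By strain, Srebf2 and Insig1 gave 0.306 in C57BL6/J and 0.658 in BALB/c, Srebf1 and Insig1 0.256 and 0.475, and Srebf2 and Insig2 0.437 and 0.112; the differences were not tested. Srebf1 and Srebf2 did not pass (r = 0.076, adjusted p = 0.593, permutation test), nor did Insig1 and Insig2 (r = -0.065, adjusted p = 0.593) or Srebf1 and Insig2 (r = -0.01, adjusted p = 0.924).

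**Figure D5:**
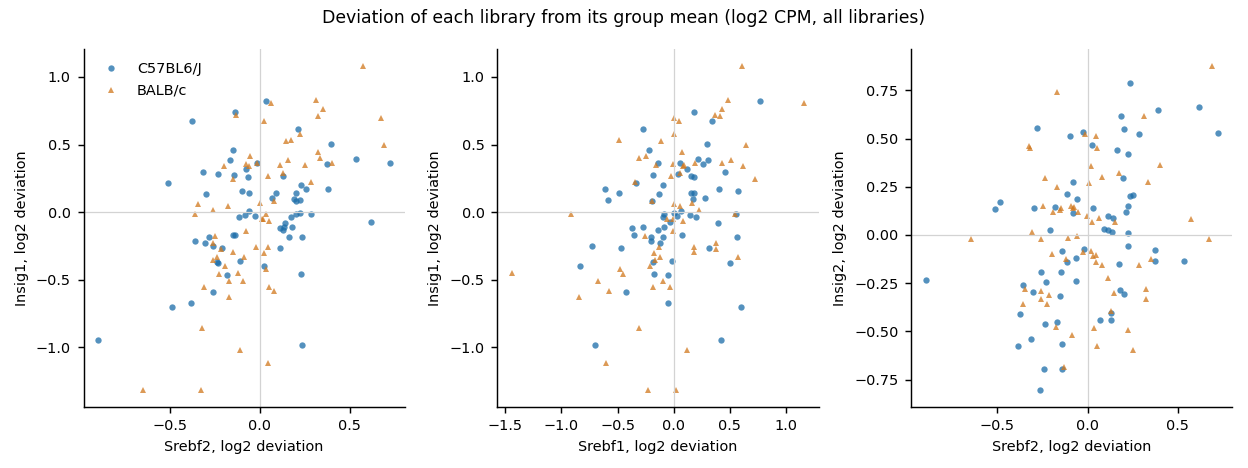
Deviation of log2 CPM from the group mean for pairs of genes, 1 point per library, coloured by strain. Points for Srebf2 and Insig1 slope upward (r = 0.488 over all libraries). Correlation is lower for Srebf1 and Insig1 (r = 0.395) and for Srebf2 and Insig2 (r = 0.294).

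Over the 26 group means, the genes closest in pattern to both SREBP and both INSIG genes were taken from 9086 genes with a mean of at least 5 CPM. These correlations are descriptions over groups that share strains, drinks and times. For Srebf1 the closest were Mid1ip1 (r = 0.954), Mis12, Bcl3, Vps37c and Kank2 (0.926). For Srebf2 they were Msmo1 (0.95), Mmab, Sqle, Cyp51 and Mrpl16 (0.915). For Insig1 they included Mvd (0.958), Acsl3 and Sec24a (0.938). For Insig2 they were Pla2g12b (0.942), Cbs, Syne1, Pxmp4 and Pld1 (0.927). None of the 4 sets of 5 shared a gene with another. Among the members, Insig1 and Insig2 ran opposite (-0.645), Srebf1 and Srebf2 had little in common (0.247), and Insig1 ran with Srebf1 (0.742) and Srebf2 (0.784) and against Scap (-0.854) and Mbtps1 (-0.861).

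The genes that SREBPs are known to switch on were counted from 2 lists on the water arm. Of 24 genes of sterol synthesis and uptake, 13 rose and 1 fell at 3 h, 22 rose and 0 fell at 6 h, and 9 rose and 1 fell at 12 h, with medians of 0.69, 1.44 and 0.42 on the log2 scale. Over all genes 12.7% were higher and 12.7% lower at 3 h, 13.9% and 14.9% at 6 h, and 8.31% and 9.3% at 12 h, with medians of -0.01, -0.00 and -0.01. Mvd, which makes isopentenyl diphosphate, rose by 2.55 ± 0.29 at 3 h and 3.25 ± 0.30 at 6 h, and Hmgcs1, the synthase ahead of HMG-CoA reductase, by 2.56 ± 0.27 at 6 h and 1.30 ± 0.26 at 12 h. Of 17 genes of fatty acid synthesis, 7 rose at 3 h, 12 at 6 h and 4 at 12 h, with 0, 0 and 1 lower and medians of 0.52, 1.16 and 0.12. Fasn, the fatty acid synthase, rose by 2.12 ± 0.32 at 3 h and 2.37 ± 0.32 at 6 h, and Thrsp, a lipogenic spot protein, was lower at 12 h, at -2.42 ± 0.34.

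With sugar, calls in the 2 lists were as follows; the lists were not tested against each other. Of the fatty acid genes 3 of 17 rose with glucose at 3 h (0.166% of all genes higher), 7 with sucrose (1.65%) and 3 with fructose (3.37%), with Fasn at 1.49 ± 0.31, 1.82 ± 0.32 and 1.34 ± 0.31, while 0 of 24 sterol genes passed in either direction in edgeR with any of the 3. The medians at 3 h were 0.57, 0.78 and 0.42 for the fatty acid genes and 0.38, 0.12 and -0.11 for the sterol genes. At 6 h with glucose 3 of 17 fatty acid genes rose (0.545% of all genes higher) and 0 of 24 sterol genes passed, with medians of 0.64 and -0.24. At 6 h with sucrose 7 of 17 fatty acid genes rose (0.58% of all genes higher) and 4 of 24 sterol genes fell (0.563% lower), among them Mvk, the mevalonate kinase, at -0.86 ± 0.19. At 6 h with fructose 2 of 17 fatty acid genes rose (0.58% of all genes higher) and 1 fell, and 9 of 24 sterol genes fell (0.646% lower), with Hmgcs1 at -1.38 ± 0.26. The BALB/c fructose libraries of replicate 4 at 3 h and at 6 h lay nearest to 0 h. The lists were not counted again without them. The medians at 6 h were 0.76 and -0.38 with sucrose and 0.17 and -0.77 with fructose. Without the 5 libraries high in adrenal or acinar markers, 1 fatty acid gene rose with glucose at 6 h, 6 with sucrose and 1 with fructose, 0, 3 and 7 sterol genes fell, and on water at 6 h 21 of 24 sterol and 11 of 17 fatty acid genes rose. In fasted liver, 18 of 24 sterol genes and 4 of 17 fatty acid genes were lower in BALB/c than in C57BL6/J (7.67% of all genes lower), with Cyp51, the lanosterol demethylase, at -3.10 ± 0.39 and Sqle, the squalene epoxidase, at -3.86 ± 0.50.

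Genes around SCAP and INSIG were counted the same way, against the shares over all genes given above for each time on water (12.7% higher and 12.7% lower at 3 h, 13.9% and 14.9% at 6 h, 8.31% and 9.3% at 12 h). Of 10 COPII coat genes, 5 rose and 0 fell at 3 h on water, 4 rose and 2 fell at 6 h, and 0 rose and 4 fell at 12 h, with medians of 0.22, 0.20 and -0.26. Sec23b, an inner coat subunit, rose by 1.25 ± 0.15 at 3 h and 0.98 ± 0.15 at 6 h and was lower at 12 h, at -0.50 ± 0.15. Of 15 genes for turnover of INSIG, HMG-CoA reductase and nuclear SREBP, 5 rose at 3 h and 6 at 6 h with 0 lower, and 0 rose and 2 fell at 12 h, close to the share of all genes lower. Syvn1, a ubiquitin ligase of the endoplasmic reticulum, rose by 2.16 ± 0.28 at 3 h and 1.58 ± 0.28 at 6 h and was lower at 12 h, at -0.78 ± 0.27.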

How the data were processed

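Liver RNA of 65 C57BL6/J and 63 BALB/c mice was sequenced as 1 library per mouse, read as such from the labels. The authors deposited raw counts per gene and FPKM for the same 35275 genes. Per the submitters' processing notes, CASAVA, STAR 2.5, HTSeq 0.6.1 and DESeq2 were used with the mouse build mm10 or GRCm38, with no role or order given. The deposited FPKM equal count over gene length and total counted, within a relative difference of 5e-12. Groups were taken from the labels.

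From the counts, all libraries entered 1 edgeR 4.0.16 quasi-likelihood fit (limma 3.58.1, R 4.3.3) with a mean per group, TMM scaling and the default filter on low counts, which left 16886 genes; 8695 had no read. CPM are TMM-scaled. Benjamini-Hochberg adjustment ran over all genes in each comparison with a threshold of 0.05. Pairs of genes were compared within libraries on log2 CPM with a prior count of 1 (SciPy 1.17.1 and Python 3.11.15). The edgeR test was tested on simulated data. As a check for a library deposited in 2 copies, libraries of a group were compared by count, and chi-square over its degrees of freedom was 17.59 or more.

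The members, the gene lists and the tests were chosen with earlier results of these data known. Named genes are the 7 members, up to 3 of each list with the smallest p, and the 5 genes whose group means correlate best with a member. Some genes that this rule names are not reported here. Alternatives were DESeq2 1.42.0, another scaling, no filter on low counts, a replicate block, a prior count of 5, only the libraries of a comparison, only those with no name suffix, and each replicate left out; leaving out libraries nearer to another time, 1 fasted library, or 5 libraries with at least 50 CPM of adrenal or 500 CPM of acinar markers was chosen after seeing the data. Promoter windows are from RefSeq.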

Additional observations from a re-analysis of the deposited data

Results flagged for a closer look

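In each group, the highest and the lowest library were compared with the rest, gene by gene. Of 182 combinations of gene and group, 11 held a library apart from the others by more than Dixon's 95% limit, and chance gives about 1 in 20.

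Several lay in the fasted state or in the libraries near it. Srebf1 was 319.3 CPM in replicate 2 of fasted C57BL6/J, with the others at 134.2 to 183.4, and this is the library whose profile lay nearest to 3 h. Scap was 358.5 CPM in replicate 1 of fasted BALB/c, with the others at 105.9 to 159.6. Scap was also high in replicate 4 of BALB/c with fructose, at 155.1 CPM at 3 h (others 89.87 to 102.9) and 152.6 CPM at 6 h (others 90.94 to 105.3), the libraries whose profiles lay nearest to 0 h.

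Replicate 4 of BALB/c with glucose at 6 h stood apart for 3 genes. It held 82.88 CPM of Srebf2 (others 41.45 to 52.74), 475.7 CPM of Insig2 (others 184.9 to 261.8) and 10.38 CPM of Mbtps2 (others 8.338 to 8.85).

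The remaining ones were at 12 h. Srebf1 was 157 CPM in replicate 5 of C57BL6/J with fructose (others 118.7 to 125.4), and Insig1 was lowest, at 182 CPM, in replicate 3 of C57BL6/J with sucrose (others 315.8 to 364.9). On water, Insig1 was 228.6 CPM in replicate 2 of BALB/c (others 75.59 to 106.6) and Insig2 was 502.3 CPM in replicate 2 of C57BL6/J (others 296.4 to 354.7).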

How the results depend on the processing

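Of 2688 alternative values of the members' log2 changes, 2616 kept their side of the threshold, 65 lost it and 7 gained it; no called change turned its sign in 512 such values, and 15 of 32 called changes kept their call under every alternative run. Of 504 values for the pairs, 448 kept their side, and of 54 Pearson correlations 53 did. With sugar, 4 member changes were called, 1 in the libraries with no name suffix and 0 to 2 with a replicate left out. For fructose against glucose 1 was called, 0 without the filter on low counts, 0 in the libraries with no name suffix, 0 with only the libraries of the comparison and 0 to 1 with a replicate left out. Between strains on water 8 were called, 5 without replicate 1 of fasted BALB/c, and as few as 4 with a replicate left out. Srebf2 at 3 h against 0 h on water (0.355) was 0.348 without the filter (adjusted p = 0.0619 by edgeR), 0.412 in the libraries with no name suffix (0.0531), 0.351 with only the libraries of the comparison (0.0583), 0.334 without replicate 1 of fasted BALB/c (0.065), and 0.248 to 0.424 with a replicate left out. Of the 18 comparisons of Insig1 against Insig2, 9 passed, 4 with the replicate block, 3 in the libraries with no name suffix and 3 to 4 with a replicate left out. Fewer libraries leave fewer arrangements to permute there. The main tests took shared replicate numbers as names only, with no link between groups. Same-numbered libraries of different groups correlated at -0.427 to 0.48, with 45.3% of pairs above 0.1. Their median was 0.083, against -0.022 for different numbers, and 85 of all libraries were closest to their own number. Same-numbered libraries were thus more alike, which the main tests leave out. What they share was not tested. With the replicate block 20 changes on water were called against 19 without it, and 4 with sugar against 4. Mbtps2, with 103 to 438 reads per library, is the gene for which depth limits precision most.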

Other observations

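Over all genes tested on water, 12.7% were higher and 12.7% lower than fasted at 3 h, 13.9% and 14.9% at 6 h, and 8.31% and 9.3% at 12 h. Of 7 genes for other proteins cut by the site-1 protease, alone or with the site-2 protease, 1 rose and 0 fell at 3 h. At 6 h 2 rose and 2 fell, and at 12 h 0 rose and 2 fell. Atf6b, a sensor of stress in the endoplasmic reticulum, rose by 0.73 ± 0.12 at 3 h and 0.49 ± 0.12 at 6 h. Creb3l3, the liver factor CREB-H, was lower at 12 h, at -0.58 ± 0.11 (adjusted p = 3.09e-05 by edgeR).

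Of 12 transcription factors known to act at SREBP or INSIG genes, 2 rose and 4 fell at 3 h and at 6 h, and 2 rose and 6 fell at 12 h. The numbers higher at 3 and 6 h are near the shares over all genes. Foxo1, a factor that insulin keeps out of the nucleus, was lower at all 3 times, at -1.29 ± 0.14, -1.07 ± 0.14 and -0.96 ± 0.14. Nfya, the subunit of NF-Y that reads CCAAT, rose by 0.82 ± 0.12 at 3 h.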
